A study of Arabidopsis thaliana with 9 samples.

Results

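Peaks of H3K4me3 were compared between jmj28-2 and wild-type Col-0 seedlings of Arabidopsis thaliana, region by region along the 5 nuclear chromosomes. Overlapping peaks of the 4 peak lists, 2 libraries per genotype, were merged into 14519 regions. Merging the lists of all 6 H3K4me3 libraries of the series gave 14670 regions. Each region was described by the libraries that had a peak in it and by the base pairs (bp) of peak in each library.

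All seedlings were 12 days old, of the Col-0 ecotype, and were grown on MS medium with 1% sucrose at 23 °C, in days of 16 h light and 8 h dark. The groups used here are Col-0, which is the wild type, and jmj28-2, a mutant of JMJ28. The atx1/2 mutant, which carries mutations in ATX1 and ATX2, is quoted beside them with its own 2 libraries and shares the Col-0 controls. Chromatin was taken from whole seedlings, so fewer cells with a mark and less mark per cell cannot be told apart. Nothing in the labels says that replicate libraries were made from separately grown seedlings. Replicate spread, and with it each p-value, may therefore be technical only.

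H3K4me3 is the trimethylation of lysine 4 of histone H3. In plants it lies over the start and the first part of genes that are being transcribed, where COMPASS-like complexes with methyltransferases such as ATX1 and ATX2 deposit it. JMJ28 encodes a nuclear protein with a JmjC domain, the catalytic fold of many histone demethylases, and belongs to the group of JmjC proteins related to H3K9 demethylases. The study asked where H3K4 methylation in seedlings depends on JMJ28.

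The 4 libraries were alike in size. Col-0 had 14343 and 14291 peaks, and jmj28-2 had 14338 and 14306. Median scores, the strength the authors' peak caller gave each peak, were 469 and 459.6 in Col-0 and 477.4 and 460 in jmj28-2. The lists hold no read counts, so depth is unknown. They record where a peak was called and how far it reached, not how much H3K4me3 it held. Of the marker genes for tissues, 5 of 6 shoot and photosynthesis markers and 3 of 6 root markers lay on a region. None of the 4 shoot meristem, 5 flower and 4 seed storage markers did, nor the pollen marker.

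Most of the H3K4me3 landscape was kept in jmj28-2. Of the 14519 regions, 13611 (93.7%) had a peak in all 4 libraries. Peaks covered slightly less of the genome in the mutant, with 28.52 and 28.83 Mb against 29.27 and 29.45 Mb in Col-0. The genotypes did not overlap in this measure, and the mean difference was -0.691 Mb. The exact two-sided permutation test gave p = 0.33, which is the smallest value that 2 libraries against 2 can reach. Median peak width was 1801 and 1820 bp in jmj28-2 against 1839 and 1858 bp in Col-0 (exact permutation p = 0.33).

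The shortfall lay mostly in 2 classes of region. In regions kept in all 4 libraries the bp of peak fell by 500.6 kb, which is 72.5% of the difference. In regions with no peak left in jmj28-2 it fell by 225.8 kb (32.7%), and regions with a peak in jmj28-2 alone added 104.4 kb. It fell by 39.4 kb (5.7%) in regions with a peak in 1 library, by 27.4 kb (4.0%) in those with a peak in 3 of the 4, and by 2.1 kb (0.3%) in those with a peak in 1 library of each genotype. Covered length was lower in both jmj28-2 libraries than in both Col-0 libraries on each of the 5 chromosomes. On chromosome 1 it was 7471 and 7561 kb in jmj28-2 against 7677 and 7732 kb in Col-0.

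Lost peaks outnumbered gained peaks. Regions were called lost when both Col-0 libraries had a peak and neither jmj28-2 library did, and gained in the opposite case. There were 141 lost regions, 0.971% of all regions, and 75 gained regions, 0.517%. For scale, 89 regions had a peak in 1 library of each genotype, 302 in a single library and 301 in 3 of the 4 libraries. The lost and gained counts have no test of their own and are given as descriptions.

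**Figure D1:**
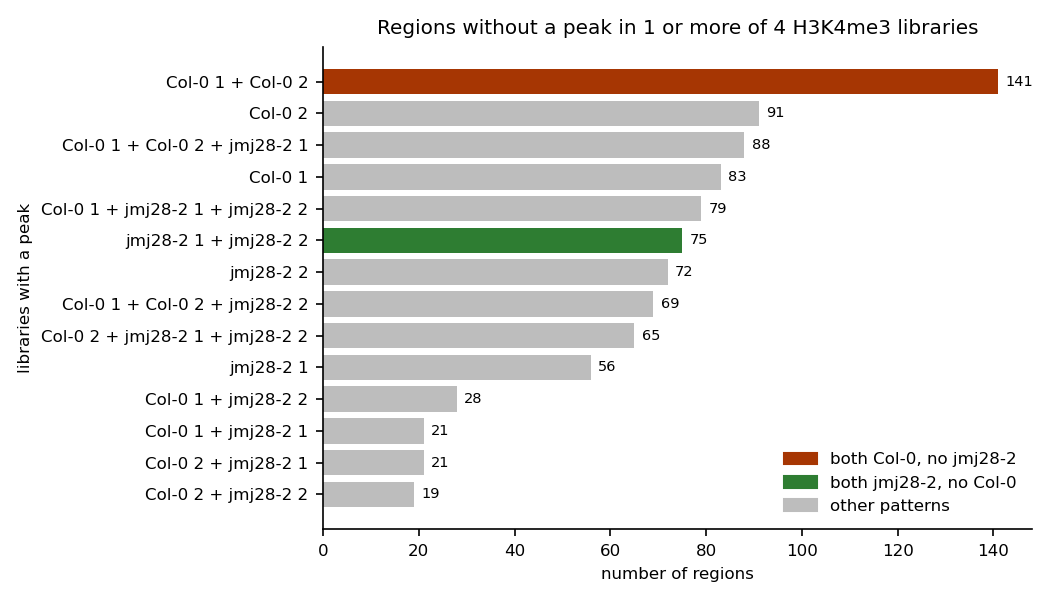
Bars give the number of regions (x axis) for each combination of libraries that had a peak (y axis), leaving out the 13611 regions with a peak in all 4. The 141 regions with a peak in both Col-0 libraries only form the longest bar, and the 75 with a peak in both jmj28-2 libraries only are of the order of several patterns in which libraries of a genotype disagree.

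Lost and gained regions mostly held weak peaks. Scores were ranked within each list, so that a percentile of 50 would be a middling peak. Lost regions had a median score percentile of 3.5 in Col-0 and gained regions one of 2.85 in jmj28-2, against 52.6 for regions kept in all 4 libraries. A score of at least 100 in both libraries was reached by 6 lost and 0 gained regions. The 301 regions that missed a peak in just 1 library had a median percentile of 3.6. The genes at the strong end of the lost class are therefore described first.

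The strongest lost peak was that of CRK29, a cysteine-rich receptor-like kinase of the family that acts in plasma membrane signalling. Its region (AT4G21410; chromosome 4, 11403212 to 11406566, TAIR10) had 3355 and 3343 bp of peak in the Col-0 libraries, at a mean score percentile of 79.6. Neither jmj28-2 library had a peak there. The atx1/2 libraries kept it, with 3286 and 3093 bp.

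On the same side of JMJ28, the neighbouring peaks of B120 and RK3 were also lost. Both genes encode receptor-like kinases. B120 (AT4G21390; 11395898 to 11398031) had 2072 and 2134 bp in Col-0, no peak in jmj28-2, and 2076 and 2126 bp in atx1/2. RK3 (AT4G21380; 11391662 to 11393462) had 1758 and 1748 bp in Col-0, no peak in jmj28-2, and 1761 and 1786 bp in atx1/2. These 3 regions make up the longest run of neighbouring lost regions, 14905 bp, and 3 of the 6 lost regions with a score of at least 100.

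This run borders JMJ28 itself (AT4G21430), whose own peak was kept. The JMJ28 region (11410712 to 11412775) had 1962 and 1952 bp in Col-0 against 2012 and 2063 bp in jmj28-2. Its length did not pass the test (log2 change 0.06 ± 0.037, SE, n = 2 per genotype; limma adjusted p = 0.809). In jmj28-2 the stretch without any peak that ends at the JMJ28 peak was 52761 and 52750 bp long, against 4247 and 4257 bp in Col-0 or 4300 and 4346 bp in atx1/2. It reaches back to the peak of PUB8, a U-box ubiquitin ligase gene, which had 2118 and 2102 bp in Col-0 against 2162 and 2112 bp in jmj28-2. Of this stretch, the 33644 bp between the PUB8 and RK3 regions held no peak in Col-0 either. The peaks missing from the rest of it in jmj28-2 were those of RK3, B120 and CRK29. Gaps between peaks as long as the whole stretch numbered 120 in jmj28-2 library 1 (0.837% of its gaps) and 121 in library 2 (0.846%).

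Protein-coding genes lying wholly inside this stretch numbered 5. They are AT4G21366, RK3, B120, CRK28 and CRK29, of which AT4G21366 and CRK28 had no region of their own in any of the 4 libraries. On the other side of JMJ28 the peaks of AT4G21450 and its neighbours were kept, with 3081 and 3215 bp in Col-0 against 3189 and 3181 bp in jmj28-2 at AT4G21450. A peak list shows neither read coverage nor the allele, so whether the DNA of this stretch is intact in jmj28-2 was not tested, and the JMJ28 peak does not check the genotype label. Without these 3 regions, an alternative chosen after seeing the data, 138 regions were lost.

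**Figure D2:**
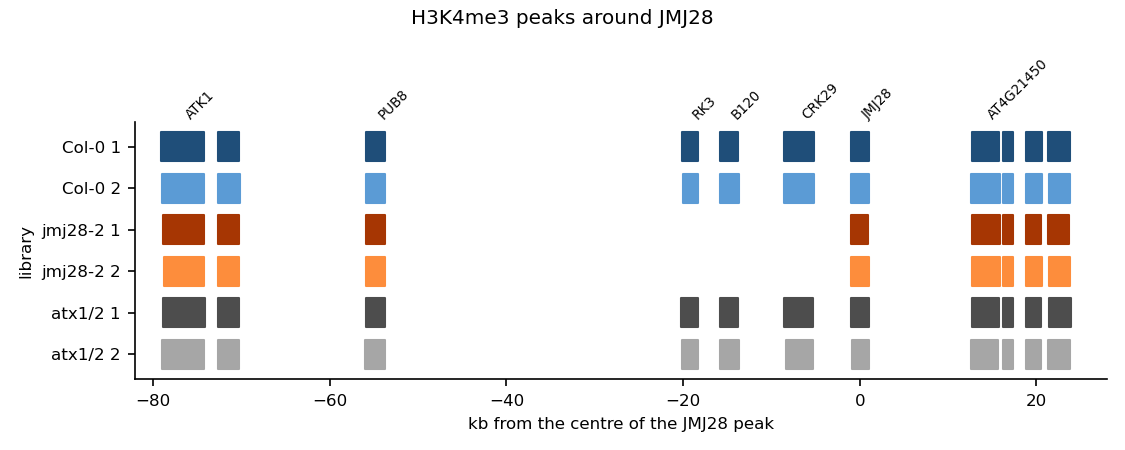
Bars mark H3K4me3 peaks of each library (y axis) by distance in kb from the centre of the JMJ28 peak (x axis, negative towards PUB8). Peaks of RK3, B120 and CRK29 are present in the Col-0 and atx1/2 libraries and absent from both jmj28-2 libraries, while PUB8, JMJ28 and AT4G21450 keep theirs.

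Away from JMJ28 the strongest lost region was at AT1G29740 (chromosome 1, 10406712 to 10408652). It had 1909 and 1941 bp in Col-0 at a score percentile of 42.4, and no peak in jmj28-2 or atx1/2. AT5G45580 followed, with 1329 and 1397 bp in Col-0, no peak in jmj28-2, and 1361 and 1300 bp in atx1/2. Apart from these regions and those beside JMJ28, all lost regions had a percentile of at most 13.8.

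Named genes next in rank covered immunity, transport and regulation. IOS1, a leucine-rich repeat receptor kinase of pattern-triggered immunity, had 2254 and 2303 bp in Col-0 and none in jmj28-2. PPI2, a proton pump interactor, had 1496 and 1549 bp, and the R2R3-type transcription factor gene MYB48 had 1631 and 1628 bp. ZF14, a MATE-type transporter gene, had 1874 and 2030 bp in Col-0.

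All of these had no peak in either jmj28-2 library. In atx1/2, PPI2, MYB48 and ZF14 kept a peak in both libraries, and IOS1 had one of 2137 bp in library 2 only. SK4, a SKP1-like gene (1661 and 1753 bp in Col-0), and AAE18, an acyl-activating enzyme gene (1778 and 2089 bp), had none in either mutant. CSLB03, a cellulose synthase-like gene, had 1759 and 1883 bp in Col-0 and kept 1794 and 1811 bp in atx1/2. MEE47 had 2226 and 2037 bp in Col-0, no peak in jmj28-2, and 1966 bp in atx1/2 library 2 alone.

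Gained regions had no member as strong as CRK29. The strongest, at AT3G45430, a gene for an L-type lectin receptor kinase (chromosome 3, 16661099 to 16663173), reached a percentile of 11.8, with 2072 and 1806 bp in jmj28-2 and none in Col-0. GA3OX1, which encodes a gibberellin 3-oxidase of active gibberellin synthesis, had 1391 and 1351 bp in jmj28-2, with 1398 and 1386 bp in atx1/2. GIS, a zinc finger gene of trichome initiation, had 1587 and 1534 bp in jmj28-2. GDU1, a membrane protein gene of amino acid export, had 1385 and 1432 bp. Col-0 had no peak at any of them.

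Several gained peaks were seen in jmj28-2 but not in atx1/2. They include those of the D-type cyclin CYCD4;2 (1427 and 1382 bp), the plasma membrane proton pump HA2 (1286 and 1299 bp), the mechanosensitive channel MSL4 (1300 and 1495 bp) and the ABC transporter ABCG6 (1743 and 1518 bp). HWI1 (1261 and 1341 bp), the calmodulin-binding IQD6 (1504 and 1804 bp) and the chloroplast protease gene FTSH6 (2163 and 1717 bp) had peaks in all libraries of both mutants. ATPMEPCRC, a pectin methylesterase gene, had the longest gained peak of the 75 regions, with 2902 and 2779 bp in jmj28-2 (2902 and 2901 bp in atx1/2). CYP96A12, a cytochrome P450 gene, had 1926 and 1998 bp in jmj28-2, with 1963 bp in atx1/2 library 2 alone.

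**Figure D3:**
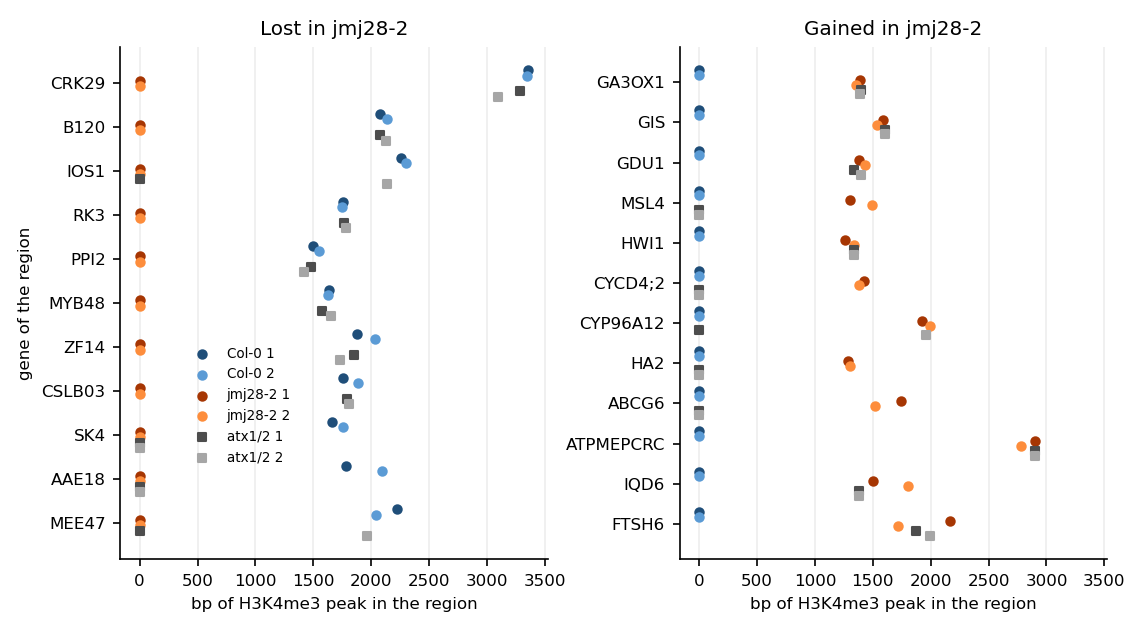
Points give the bp of H3K4me3 peak (x axis) in each library for 11 lost and 12 gained regions named by the rule (y axis), ordered by score percentile with the strongest at the top; squares are the atx1/2 libraries. The jmj28-2 points lie at 0 for the lost regions shown and between 1261 and 2902 bp for the gained ones, where the Col-0 points lie at 0.

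Gene content was counted in the same classes of region. Lost regions covered several protein-coding genes in 14 cases (9.93%) and gained regions in 1 case (1.33%), against 32.1% of kept regions. No protein-coding gene lay under 8 lost (5.67%) and 7 gained regions (9.33%), against 1.54% of kept ones. Regions in 3 of the 4 libraries, which were as weak, stood at 10.6% and 6.64% in these measures. Lost regions were spread over the chromosomes, from 0.678% of the regions of chromosome 2 to 1.26% of those of chromosome 1.

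Counted by gene, 17523 of 27432 protein-coding genes lay on a region, and of these 147 (0.839%) lay on a lost region and 69 (0.394%) on a gained one. Shortened regions, described further on, held 31 (0.177%) and lengthened regions 6 (0.0342%). A lost peak was not always the gene's only peak: 15 genes on a lost region and 6 on a gained one also lay on a region kept in all 4 libraries.

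Receptor kinases of the CRK family were among the genes that lost a peak. Of 20 CRK genes on a region, 4 were on a lost one, CRK29, CRK21, CRK22 and CRK26, against 0.839% of all genes on a region. The family was chosen with these values known. Apart from CRK29 these were weak peaks, at mean score percentiles of 5.69 at CRK21, 6.22 at CRK22 and 3.55 at CRK26. CRK21 and CRK22 are neighbours on chromosome 4 and formed a run of 4772 bp. CRK21 had 2262 and 2409 bp in Col-0, no peak in jmj28-2, and 2297 and 2233 bp in atx1/2. CRK22 had 890 and 940 bp in Col-0, none in jmj28-2 and 934 and 927 bp in the atx1/2 libraries. CRK26 lost a peak of 1521 and 1524 bp, absent from atx1/2 too, but kept another of 2394 and 2889 bp in Col-0 against 2323 and 2328 bp in jmj28-2.

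Other CRK genes kept their peaks. CRK2 had 2502 and 2319 bp in Col-0 against 2449 and 2342 bp in jmj28-2, and CRK10 had 2432 and 2283 bp against 2239 and 2352 bp. At CRK5 a peak was called in Col-0 library 2 and jmj28-2 library 1 only, so calls in this family also varied between replicate libraries. CRK genes stand in tandem clusters of similar sequence, and how reads matching several copies were placed is not given in the sources used here. Without the run beside JMJ28 the count is 3 of the remaining CRK genes.

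Receptor-like proteins and ABCG transporters also had a few members among the lost genes. Of 35 receptor-like protein (RLP) genes on a region, 2 were on a lost one. RLP23, the receptor of an immunogenic peptide from necrosis-inducing proteins, had 3335 and 3279 bp in Col-0, and RLP38 had 2719 and 2459 bp. Neither had a peak in jmj28-2 or atx1/2. Of 24 ABCG transporter genes, ABCG14, a cytokinin exporter (2923 and 2994 bp in Col-0), and ABCG35 (1758 and 1759 bp) were lost and ABCG6 was gained. All of these were weak peaks. Mean score percentiles were 4.91 at RLP23, 3.5 at RLP38, 2.65 at ABCG14, 2.24 at ABCG35 and 5.49 at ABCG6. At ABCG14 the score in Col-0 library 1 was 20.5, close to the lowest score of the list.

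Transcription factor and enzyme families had a few such members each, most of them at weak peaks. Of 36 MYB genes on a region, MYB48 and MYB3R-4 were lost, and of 39 NAC genes, NAC019 and NAC084. Cytochrome P450 (CYP) genes numbered 97, with CYP72A13 lost and CYP90D1, CYP72A15, CYP96A12 and CYP94B1 gained. CYP90D1, an enzyme of brassinosteroid synthesis, had 1349 and 1309 bp in jmj28-2 against none in Col-0, at a percentile of 0.3. Of 35 WRKY genes, WRKY54 was gained (1029 and 1205 bp in jmj28-2). Of 11 KCS fatty acid elongase genes, KCS5 was gained (2065 and 2171 bp), and of 15 BBX and 15 IAA genes, BBX27 and IAA19.

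Among 8 genes on a region with a PME name (pectin methylesterases), PME44 was lost and PME2 gained. No member was lost, gained or changed in length among 43 RPL and RPS ribosomal protein genes, 21 ERF, 15 ARF, 16 histone, 7 bHLH, 4 SAUR and 2 WAK genes on a region. Families were taken by gene symbol, so members under another name, such as the bHLH gene LRL3 described further on, are not in these counts. Over all genes on a region the shares were below 1%, as given above, and these lists are small.

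Flowering genes, the setting in which JMJ28 is best known, kept their peaks, as did most genes on a region. Of 28 genes of photoperiod and flowering time, 23 lay on a region, and none of these was lost, gained or changed in length by the test. Over all genes, 16723 of the 17523 on a region lay on one kept in all 4 libraries. Only 0.839% were on a lost region and 0.394% on a gained one, so having none does not set a list of 23 genes apart. CO, the photoperiod-dependent activator of flowering, shared its region with bZIP3 and AT5G15843. That region had 2593 and 2577 bp in Col-0 against 2612 and 2542 bp in jmj28-2, so that the genotypes overlapped (limma adjusted p = 0.991). FT, the florigen gene, had no region. SOC1, a floral integrator, had 1872 and 1882 bp in Col-0 against 1770 and 1707 bp in jmj28-2 (a log2 change of -0.11, adjusted p = 0.805). ZTL, a blue light receptor, had the lowest adjusted p of the list, 0.554, at a region shared with AT5G57370, with 2030 and 2086 bp against 1832 and 1797 bp. The other ZTL region, which held no other gene, had 1663 and 1564 bp in Col-0 against 1574 and 1634 bp in jmj28-2 (limma adjusted p = 0.989).

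FLC, the floral repressor, had 1326 and 1343 bp in Col-0 against 1321 and 1312 bp in jmj28-2 (limma adjusted p = 0.932). In the list of FLC relatives and regulators 16 of 19 genes lay on a region, all kept. Clock genes gave 15 of 15 on a region, and 14 of them were on one kept in all 4 libraries. Both lists are thus near the share of kept genes over all genes on a region. CCA1, a morning clock gene, had a peak in library 2 of each genotype only, of 1514 bp in Col-0 against 1590 bp in jmj28-2. For RVE8, a clock activator, the values were 1418 and 1425 bp in Col-0 against 1596 and 1658 bp in jmj28-2 (adjusted p = 0.541).

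Genes of the H3K4 methylation machinery were mostly kept as well, near the share over all genes on a region (16723 of 17523). Of 13 methyltransferase and COMPASS subunit genes 12 had a peak in all 4 libraries, and SDG4 had one in jmj28-2 library 1 only. ATX1 had 2002 and 1905 bp in Col-0 against 1808 and 1891 bp in jmj28-2, and ATX2, whose region also held SPPL5, had 2083 and 2123 bp against 2013 and 1968 bp (limma adjusted p = 0.805 for both). Of 13 JmjC and LSD1-type demethylase genes that matched the gene table, 12 lay on a kept region. Their 15 regions had a median log2 change of -0.07, and 86.7% were shorter in jmj28-2, against a median of -0.02 and 64.2% over all 13611 tested regions. None of them passed the test.

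Lengths within kept regions shifted by little. Limma was applied to the log2 bp of peak in the 13611 regions that all 4 libraries shared, and 23 of them passed an adjusted p threshold of 0.05. Of these, 19 regions were shortened (0.14%) and 4 lengthened (0.0294%). Without adjustment, 827 regions (6.08%) had a limma p under 0.05. In 3626 regions (26.6%) both jmj28-2 libraries were shorter than both Col-0 libraries, and in 1403 (10.3%) both were longer. The median signed difference between genotype means was -26.5 bp. Without regard to sign, the genotype means differed by a median of 54 bp, and replicate libraries by a median of 70 bp for Col-0 and 65 bp for jmj28-2.

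The small shortening ran through all sizes of region. When regions were ranked by mean length and divided into 5 groups of nearly equal size, the median difference lay between -17.5 bp in the shortest group and -36.2 bp in the longest. Edges inside and outside genes were compared in 8002 single-peak regions that had 1 edge of each kind. Counted outward from the region, edges inside a gene differed by -20.3 bp on average in jmj28-2 against Col-0, and edges outside genes by -9.7 bp. The exact permutation p was 0.33 for both, the smallest possible, and the groups did not overlap in either.

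**Figure D4:**
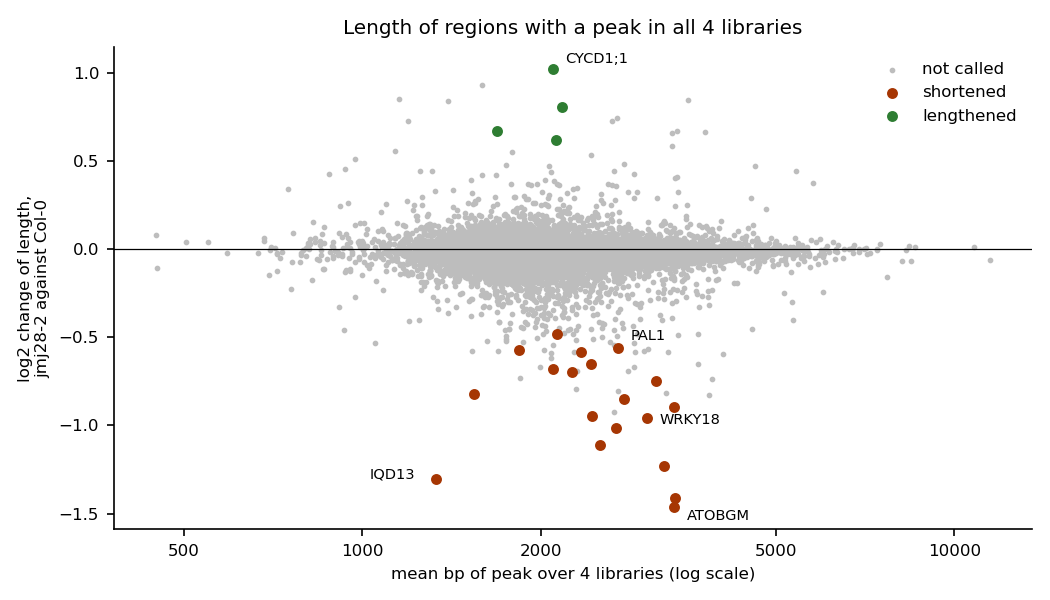
Each point is a region with a peak in all 4 libraries, placed by its mean bp of peak (x axis, log scale) and its log2 change of length in jmj28-2 against Col-0 (y axis). The 19 shortened and 4 lengthened regions lie away from the centre of the cloud, which is just below 0, with a median of -0.02. Some regions that were not called changed more than some called ones, as AT1G04150 at -0.815 against PAL1 at -0.56.

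Most shortened regions spanned neighbouring genes, and in several of them one gene was left without a peak there. Of the 19, 13 lay over at least 2 protein-coding genes, 4 over 1 gene and 2 over none. Over all 13611 kept regions 32.1% covered several genes. The longest of the 5 length groups held 10 of the 19, and a comparison with regions of like length was not made. In 6 of them a gene whose body within the region carried peak in both Col-0 libraries had none there in jmj28-2. The count rests on all 4 libraries: without any 1 of them limma called 0 regions, with 654 to 916 regions at an unadjusted p under 0.05, since 1 genotype is then a single library. With all 6 libraries in 1 fit, 22 of the 23 regions could be tested and 14 calls held. The 8 calls that did not hold were those at ATOBGM, IQD13, AT1G24140, AT1G55040, AT5G12950 and DCF and at both regions without a protein-coding gene, and the region of AT4G02180 was not tested, since it had no peak in atx1/2.

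WRKY18, a transcription factor gene of the defence response, shared such a region with AT4G31805 (chromosome 4, 15382785 to 15386931). It had 4147 and 3831 bp in Col-0 against 2049 and 2058 bp in jmj28-2 (a log2 change of -0.96 ± 0.0511, SE, n = 2 per genotype; limma adjusted p = 0.0185). Over the body of WRKY18 the peak measured 2316 and 2210 bp in Col-0 against 2049 and 2058 bp in jmj28-2. Over AT4G31805 it went from 1652 and 1442 bp to 0 in both jmj28-2 libraries. The atx1/2 libraries also had none on AT4G31805.

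A B-type cyclin, CYC1BAT, lost its part of a region shared with SNX1, a sorting nexin gene (chromosome 5, 1857606 to 1860211). The region had 2559 and 2605 bp in Col-0 against 1630 and 1593 bp in jmj28-2 (a log2 change of -0.68, limma adjusted p = 0.0195). On the CYC1BAT body 933 and 932 bp in Col-0 became 7 and 0 bp in jmj28-2 (4 and 23 bp in atx1/2). SNX1 kept 1248 and 1218 bp against 1251 and 1298 bp in Col-0.

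The same pattern was seen at ATCHX8, a cation/proton exchanger gene next to CSD2, the chloroplast copper/zinc superoxide dismutase gene. ATCHX8 went from 1142 and 1534 bp of peak in Col-0 to 0 in both jmj28-2 libraries, while CSD2 had 1538 and 1559 bp against 1479 and 1607 bp. The shared region had an adjusted p of 0.0436 by limma. LRL3, a bHLH gene of root hair growth, went from 1087 and 941 bp to 0 beside AT5G58020. IQD13 went from 860 and 1165 bp to 0 beside HLECRK, a lectin receptor kinase gene. Peak over AT1G24130 and AT4G31760 went from 1515 and 1515 bp and from 1465 and 1363 bp to 0, next to AT1G24140 and to WIN2, a protein phosphatase gene.

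Shortening within 1 gene was seen at AT4G02180, where Col-0 had 2050 and 1894 bp, jmj28-2 1124 and 1104 bp and atx1/2 no peak (a log2 change of -0.82 ± 0.0517; limma adjusted p = 0.0244). Peak covered 96.0% of the part of its body within the region in Col-0 and 54.2% in jmj28-2, and its mean score percentile was 4.42. The same was seen at PAL1, which encodes phenylalanine ammonia-lyase, the first enzyme of phenylpropanoid synthesis. Its region (chromosome 2, 15557509 to 15560795) had 3226 and 3233 bp in Col-0 and 3232 and 3275 bp in atx1/2, but 2199 and 2172 bp in jmj28-2. The jmj28-2 libraries lay below all others (log2 change -0.56 ± 0.0355; limma adjusted p = 0.0244). Peak covered 99.4% of the part of the PAL1 body within the region in Col-0 and 66.6% in jmj28-2.

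The largest shortening by log2 change was at ATOBGM and AT1G07615 (chromosome 1, 2341969 to 2347081). There 4753 and 5113 bp in Col-0 stood against 1790 and 1787 bp in jmj28-2, with 1841 and 3810 bp in atx1/2 (log2 change -1.46 ± 0.049; limma adjusted p = 0.00523). At AT3G28310 a region of 5024 and 4773 bp in Col-0 had 1807 and 1877 bp in jmj28-2. The 415 bp of the AT3G28310 body within that region were covered in every library, so the change lay outside this gene. AT3G07195, beside AT3G07200, went from 3374 and 3517 bp to 1590 and 1595 bp in jmj28-2 and kept 3240 and 3145 bp in atx1/2. At AT3G58950 and AT3G58940 the values were 4803 and 4261 bp against 1871 and 1995 bp.

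The 4 lengthened regions included that of CYCD1;1, a D-type cyclin gene of the entry into the cell cycle (chromosome 1, 26439423 to 26442281). It had 1380 and 1391 bp in Col-0 against 2806 and 2816 bp in jmj28-2 (a log2 change of 1.02 ± 0.0353; limma adjusted p = 0.00523). Peak covered 48.2% of the CYCD1;1 body within the region in Col-0 and 99.2% in jmj28-2. In atx1/2 the values were 2786 and 2674 bp.

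MES16, a methylesterase gene of chlorophyll breakdown, had no peak on its body in Col-0 and 975 and 1047 bp in jmj28-2. It lies beside AT4G16695, and the shared region went from 1525 and 1642 bp to 2715 and 2822 bp (log2 change 0.81 ± 0.0525; limma adjusted p = 0.0263). DCF, a feruloyl transferase gene of cutin synthesis, had 356 and 336 bp on its body in Col-0 and 1377 and 1215 bp in jmj28-2, beside GSA2, a gene of tetrapyrrole synthesis, at 1275 and 1199 bp against 1150 and 1218 bp. AT5G12950 went from 1294 and 1310 bp to 2154 and 1983 bp (limma adjusted p = 0.0448). The AT5G12950 region held 2 peaks in jmj28-2 library 2 and divides when library 1 is left out. The log2 change was then -0.051 in the larger part.

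**Figure D5:**
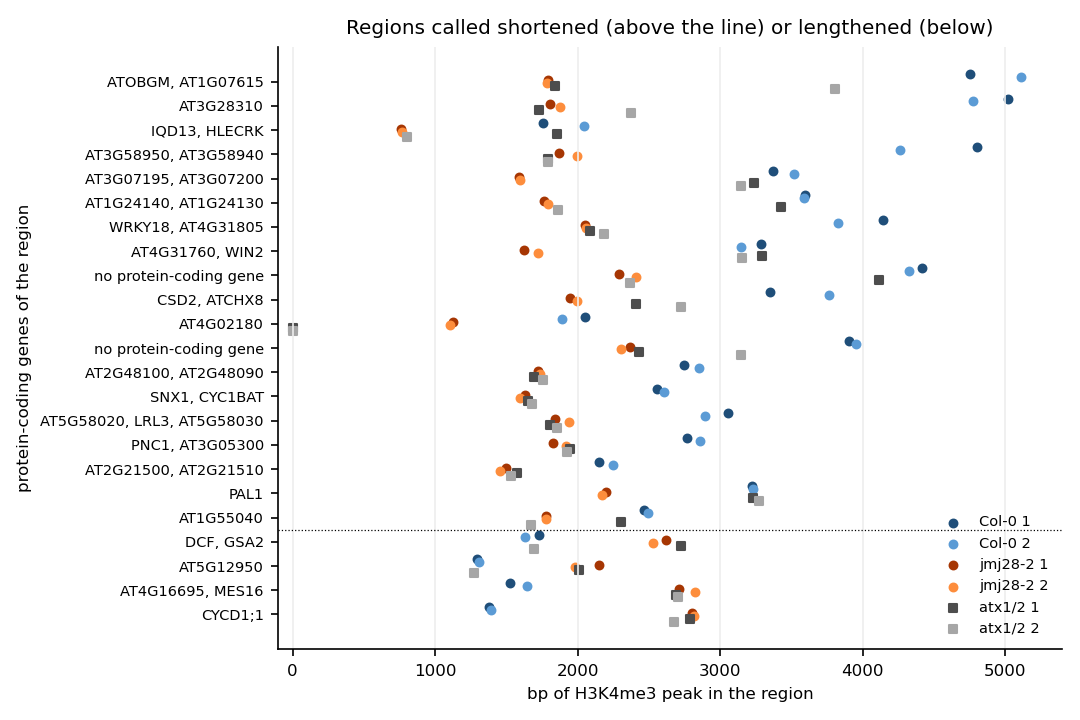
Points give bp of H3K4me3 peak (x axis) per library in the 23 regions that passed the test, labelled by their protein-coding genes (y axis), with shortened regions above the dotted line and lengthened ones below; squares are the atx1/2 libraries. In every region both jmj28-2 points lie on the same side of both Col-0 points, and the atx1/2 points lie near the jmj28-2 points in some regions and near the Col-0 points in others, as at PAL1.

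In 19 of the 23 called regions every library had a peak with a score of at least 100, as in 12125 of all 13611 kept regions. In 20 of the 23 each library had a single peak. Both mutants are set against the same Col-0 libraries, so the atx1/2 values are set beside those of jmj28-2 without a comparison of lists.

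Some peaks divided without a called change in length. In 13173 kept regions (96.8%) each library had 1 peak. In 44 regions both jmj28-2 libraries had more peaks than both Col-0 libraries, in 9 fewer, and in 343 the libraries of a genotype differed. The gaps in the 44 regions had a median of 55.2 bp. Of the 44 regions, 41 covered at least 2 genes, against 32.1% of all kept regions. Most of them were long, and a comparison with regions of like length was not made. CYP81F2, a P450 gene of indole glucosinolate synthesis, shared one such region with AT5G57230, where a single peak of 3523 and 3452 bp in Col-0 gave way to 2 peaks in each jmj28-2 library, with gaps of 471 and 356 bp. The region of RUG3, a mitochondrial protein gene, and RABA1f divided with gaps of 275 and 306 bp.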

How the data were processed

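H3K4me3 was measured by chromatin immunoprecipitation and sequencing in 2 libraries each of Col-0, jmj28-2 and atx1/2 seedlings; the 3 H3 samples of the series were not analysed here. The submitters' processing notes name the build TAIR10 and, without their roles, deepTools 2.4.1, MACS 1.4, Bowtie2 2.2.8 and ChIPseeker. The authors deposited 1 peak list per library, with positions and a peak score. The names of the deposited lists pair both H3K4me3 libraries of a genotype with the H3 of that genotype, so a difference between the H3 samples cannot be told apart from the genotype. Scores in a list start at 20.01 to 20.08 and served only to rank the peaks of each list or to filter all lists at 100. Read counts are not part of the lists, so depth is unknown and intervals for counting error cannot be given.

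Peaks of the 4 lists sharing at least 1 bp were merged, after starts were converted to positions counted from 1. Chloroplast peaks did not enter the regions. Length was tested on the log2 of the bp of peak with limma 3.58.1 (R 4.3.3), over all 13611 regions with a peak in each of the 4 libraries, with 2 residual degrees of freedom and Benjamini-Hochberg adjustment at 0.05. The procedure was run on simulated data with normal noise, with replicate spreads shuffled among regions and the largest of them capped. That run therefore does not cover the most variable regions. Whole-library values were compared with an exact permutation test, two-sided. The software was Python 3.11.15 with scipy 1.17.1, numpy 2.4.6, pandas 2.3.3 and, for figures, matplotlib 3.10.9.

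Genes came from a RefSeq table of TAIR10.1 without strand, at an overlap of at least 200 bp; its fit to the peaks was checked in 110 windows of 1000 kb, of which 109 fitted best with a shift under 400 bp. Printed coordinates are those of regions. JMJ28 is listed there as B160. The members and gene lists were chosen with earlier results of these data known. Named were JMJ28, ATX1, ATX2, CO, FT and FLC, the 12 lost and 12 gained regions of highest mean score percentile with a gene symbol, the 10 shortened and 10 lengthened regions of largest change (4 passed), members of the lists on changed regions, and runs of neighbouring lost regions; 1 of the 12 lost regions and 1 gene family are not reported here. Other genes were picked with their values in view, among them AT1G29740, AT5G45580, AT3G45430, AT4G02180, PAL1, SNX1 with CYC1BAT, LRL3, CYP81F2 and RUG3. The family rule for cyclins was changed to names starting with CYCA, CYCB or CYCD, since as written it matched unrelated genes. Promoter sequences and motifs were not analysed here. Alternatives covered peak numbers, scores, merging, a pseudocount of 200 bp, scaling, the replicate block and leaving out each library.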

Additional observations from a re-analysis of the deposited data

Results flagged for a closer look

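Peaks on the chloroplast genome, which were outside all regions, covered more in both jmj28-2 libraries than in either Col-0 library. They covered 31586 bp in 6 peaks in jmj28-2 library 1 and 12440 bp in 3 peaks in library 2. Col-0 had 2027 bp in 1 peak and 4678 bp in 3 peaks, and the atx1/2 libraries had 0 peaks there. The highest score was 236.16 and 125.65 in jmj28-2 against 25.54 and 29.85 in Col-0. The signal was singled out because it lies outside the comparison and above the level of the control libraries. Its part in the results on nuclear regions was not tested.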

How the results depend on the processing

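With 1 peak list per library and 2 libraries per genotype, no permutation test could pass its threshold. A region without a called peak may still hold H3K4me3 below the calling limit, and an unchanged length does not show an unchanged level. Covered length and median width were lower in jmj28-2 under every alternative run, with equal numbers of peaks, scores of at least 100 and each library left out; leaving out 1 library gave differences from -0.848 to -0.534 Mb and from -47.5 to -28.5 bp. The number of peaks differed by 5 in the full lists and by -21 to 31 without 1 library, so its sign is not settled.

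Lost regions numbered 137 to 141 and gained regions 69 to 75 under the alternatives on peak number, merging, region definition and a minimum of 500 bp. At scores of at least 100 there were 119 and 102, but only 6 of the 141 lost and 0 of the 75 gained regions were among them. Without 1 library the counts rose to 212 to 233 lost and 131 to 155 gained, because a single library then stands for a genotype.

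The 23 regions called by limma were also called with a pseudocount, with robust variances, after median centring and with equal numbers of peaks. The count was 38 at scores of at least 100 (33 shortened, 5 lengthened), with 17 of the 23 among them, and 248 (169 and 79) when the test also took regions lacking a peak in 1 or 2 libraries. Centring each library on its median gave 23 shortened and 5 lengthened. The count was 5 with the replicate number as a block (4 and 1), and these 5 were among the 23. The labels do not say whether libraries of the same replicate number were handled together. Differences between replicates 1 and 2 correlated between genotypes by 0.017, which cannot settle whether they were. Leaving out 1 library gave 0 to 0 calls. Changes near 0 turned sign at CO, to 0.024 after centring and from -0.02 to 0.015 without 1 library, at FLC, to 0.009 after centring, and at AT5G12950, from -0.051 to 0.73 without 1 library, the lower value without jmj28-2 library 1, where the region divides. No alternative turned the sign of another named change.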

Other observations

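Genes of cell division were found among the weak lost and gained regions; they were chosen after their values were seen. CDKB2;1, a cyclin-dependent kinase gene of the G2 to M transition, had 1794 and 1852 bp of peak in Col-0 and none in jmj28-2 or atx1/2, at a score percentile of 2.81. MYB3R-4, which encodes an activator of mitotic genes, had 1440 and 1397 bp in Col-0 and none in either mutant, at a percentile of 1.15. The B-type cyclin CYCB1;5 had 663 and 687 bp in Col-0 and none in either mutant. ORC2, an origin recognition complex gene, had 1892 and 2256 bp in jmj28-2, with 1936 and 2001 bp in atx1/2, with none in Col-0. Together with CYC1BAT, CYCD1;1 and CYCD4;2 these are values of single genes. By the family rule, which leaves out CYC1BAT, 23 cyclin genes lay on a region. Of these, 20 lay on one kept in all 4 libraries, among them the lengthened CYCD1;1.

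A pair of related light stress genes moved in opposite directions. ELIP1, an early light-induced protein gene, had 1591 and 1463 bp in Col-0, no peak in jmj28-2, and 1568 bp in atx1/2 library 1 only. ELIP2 had none in Col-0, 1346 and 1193 bp in jmj28-2, with 1289 and 1295 bp in atx1/2. Their percentiles were 0.539 and 2.78, close to the calling limit.

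Regulators of development were among the gained regions, also chosen after their values were seen. SPCH, the gene that starts the stomatal lineage, had 1963 and 1853 bp in jmj28-2 and none in Col-0. ANT, a regulator of organ growth, had 1800 and 1787 bp, and SEP4, a MADS-box gene of floral identity, had 1237 and 1280 bp. In atx1/2, SPCH and ANT had a peak in library 1 only (1865 and 1842 bp), and SEP4 had one in both libraries. Their score percentiles in jmj28-2 were 4.01 at SPCH, 2.88 at ANT and 2.39 at SEP4, so all were weak peaks. Among lost regions, NDR1 and MLO6, both genes of disease response, had 757 and 729 bp and 1244 and 1709 bp in Col-0. Both kept a peak in the atx1/2 libraries, and both were weak in Col-0, at percentiles of 2.79 and 5.65.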
